A study of Homo sapiens with 6 samples.

Results

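The transcript levels of 5 genes of the PML nuclear body, PML, SP100, SP110, SP140L and DAXX, were read from RNA-seq of A549 cells with and without CELF6 over-expression. The genes were taken by symbol from the table of 29889 genes with a read count, and each had 1 row. All 5 passed the filter on low counts, which kept 15847 genes for the test. A549 is an established human lung adenocarcinoma line. The CELF6-OE group was transfected with the plasmid pIRES-hrGFP-1a carrying CELF6, an RNA-binding protein, and the Control group with the empty plasmid, so the vector and its transfection were shared by both. Cells were harvested after 48 h, and each group had 3 biological replicates. The model is a single cell line with transient transfection, and the share of cells that took up the plasmid was not analysed here.

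PML nuclear bodies are small dots in the nucleus of most mammalian cells. The PML protein builds their shell through SUMO, a small protein joined to other proteins, and partner proteins such as SP100 and DAXX are drawn in through SUMO binding. The bodies are known for restricting DNA viruses and for a part in apoptosis and in the loading of the histone variant H3.3 onto chromatin. PML and the SP100 family are known as genes that interferons induce. SP100, SP110 and SP140L belong to this family together with SP140, and its members carry a SAND domain, which contacts DNA.

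The 3 SP genes lie side by side on chromosome 2, in GENCODE v44 positions on GRCh38. SP110 occupies chr2:230165186-230225729 on the minus strand, SP140L chr2:230327184-230403732 on the plus strand and SP100 chr2:230415942-230545606 on the plus strand. SP140, at chr2:230203110-230313215 on the plus strand, overlaps the 5′ part of SP110 and ends before SP140L. PML is at chr15:73994673-74047827 on the plus strand and DAXX at chr6:33318558-33323016 on the minus strand.

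RefSeq promoter windows on GRCh38.p14 were matched by symbol for 3 of the 5 genes, SP100, SP110 and SP140L, with 5 windows of 250 bases before a transcription start. The sequences below are shown because a stretch of 16 bases was common to both SP110 windows and the SP140L window, and recurred with 1 change before the first start of SP100. Capitals mark the stretch. Where it lay in an annotated UTR, the print is kept to 30 bases around it, and elsewhere it runs over the part of the window without annotated UTR.
SP110, the first start, chr2:230225719-230225748, minus strand: caaagagGAAAAGAAAAGTGAAAttgccta
SP110, the second start, chr2:230220015-230220234, minus strand: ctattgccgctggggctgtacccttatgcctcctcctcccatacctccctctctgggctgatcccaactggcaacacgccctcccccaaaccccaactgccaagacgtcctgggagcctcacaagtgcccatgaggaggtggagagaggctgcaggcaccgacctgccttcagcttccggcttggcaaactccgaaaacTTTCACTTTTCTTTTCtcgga
SP140L, chr2:230326943-230327183, plus strand: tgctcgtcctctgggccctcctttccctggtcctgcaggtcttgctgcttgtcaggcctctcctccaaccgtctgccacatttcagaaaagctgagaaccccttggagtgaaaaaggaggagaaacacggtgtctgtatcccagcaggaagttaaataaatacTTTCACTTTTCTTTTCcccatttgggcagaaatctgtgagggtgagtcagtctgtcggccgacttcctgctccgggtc
SP100, the first start, chr2:230416130-230416159, plus strand: taaatacTTTCACTTCTCTTTTCcccattt

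The stretch stood as its reverse complement before the first start of SP110 and in the same direction in the other windows. It ended 89 and 35 bases before the 2 starts of SP110, 71 bases before that of SP140L and 48 bases before the first of SP100. The SP100 copy carried T9C, with positions counted from 1 at the 5′ end of the stretch as SP140L has it. The second start of SP100 held no copy, and its closest match had 6 mismatches. Over the same 250 bases of all 35116 RefSeq windows, the exact stretch was in 3, or 0.00854%, all of SP110 or SP140L. The stretch was taken as the longest run common to these 3 windows, so these 3 hits were fixed by its choice. The SP100 copy lies in a window that is like that of SP140L as a whole (74.5% of aligned columns identical), so it is not a separate recurrence. With up to 1 mismatch it was in 12 windows, or 0.0342%, of 11 genes.

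**Figure D1:**
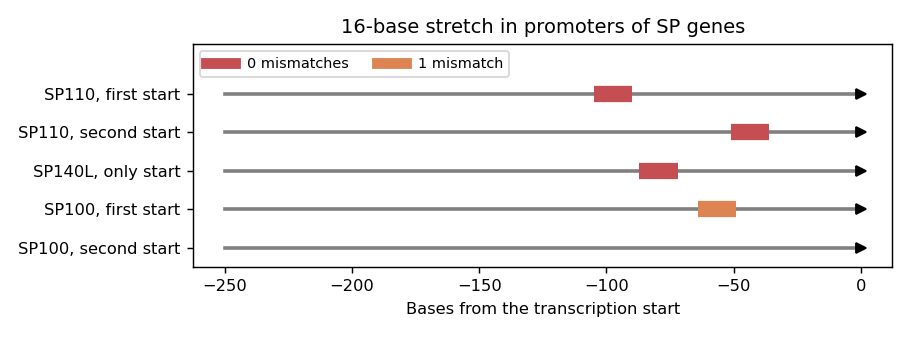
Position of the 16-base stretch in the 5 RefSeq windows of SP110, SP140L and SP100. The horizontal axis gives bases from the transcription start (arrow), red boxes an exact copy and the orange box a copy with 1 mismatch, and the copies end between 35 and 89 bases before the start in 4 of the 5 windows.

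Motifs were searched on both strands in the same windows. GAAANGAAA, a variant with a gap of 1 base of the core of the interferon-stimulated response element, was found 1 time in each SP110 window and in the SP140L window. It was present in 2.69% of all windows. The core with a gap of 2 bases, GAAANNGAAA, was in 3.02% of all windows and in none of the 5. The gamma-activated site TTCNNNGAA was in 6.57% of all windows and 1 time before the second start of SP110. The shorter AANNGAAA, which every match of either core contains, was in 20.3% of all windows. It had 2 matches in both SP110 windows and in SP140L and 1 before the first start of SP100. These AANNGAAA matches, too, lie inside the stretch or its SP100 copy. SP140L and the first start of SP100 were the most alike of the 10 pairs of windows, with 74.5% of 278 aligned columns identical and a longest shared run of 48 bases, against 47.5% to 55.9% in the other pairs.

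Sequencing gave 33748328 to 35413404 counts on genes per CELF6-OE library and 36422617 to 37920700 per Control library. CELF6 itself had 18646, 20789 and 11571 counts in the CELF6-OE replicates 1, 2 and 3 and 0 counts in all 3 Control libraries. Its FPKM (fragments scaled by transcript length and library depth) was 246 ± 64.9 (SD, n = 3) in CELF6-OE, at least 5937-fold above the limit that 3 counts per Control library allow. CELF6-OE replicate 3 had 61.0% of the mean CELF6 FPKM of replicates 1 and 2. The epithelial markers of A549 were present, led by KRT8 at 2530 FPKM in Control, while the leukocyte gene PTPRC was at a mean of 0.0033 FPKM in Control and 0 in CELF6-OE. Of the same leukocyte list, CD68 was at 8.68 FPKM and CD14 at 3.32 FPKM in Control.

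Transcripts of 4 of the 5 genes were lower in CELF6-OE than in Control. SP140L fell to 49.6% of its Control level, PML to 54.5%, SP110 to 69.7% and SP100 to 72.8%, while DAXX stood at 95.5% and did not pass the test. Called means a Benjamini-Hochberg adjusted p under 0.05, over all 15847 genes, in the quasi-likelihood test of edgeR. Of all genes tested, 11.5% were called lower and 6.47% higher, beside 4 lower and 0 higher of the 5 genes. By the rule for DEGs in the study's methods, which asks for a fold change of 1.5 or more beside a p under 0.01, 2 of the 5 were lower (PML and SP140L) and 0 higher, against 5.91% lower and 1.36% higher of all genes. In the same 4 genes the 3 CELF6-OE libraries were all below the 3 Control libraries, which held for 20.0% of all genes tested. The median log2 fold change over all genes was 0.011. Fewer transcribing cells and less RNA per cell cannot be told apart in these bulk libraries.

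PML encodes the scaffold protein of the bodies. Its read counts were 2118, 2059 and 2514 in CELF6-OE replicates 1, 2 and 3 and 3922, 4336 and 4686 in Control. On the FPKM scale PML had 6.69, 6.37 and 8.17 in CELF6-OE and 11.87, 12.62 and 13.63 in Control. The highest CELF6-OE library, replicate 3, stayed below the lowest Control library. The mean FPKM was 7.08 ± 0.96 in CELF6-OE and 12.7 ± 0.88 in Control (SD, n = 3), with the smallest p that an exact permutation test of 3 against 3 can give (two-sided p = 0.1). The log2 fold change from counts was -0.88 (SE 0.10, 95% interval -1.10 to -0.66, edgeR adjusted p = 0.000179). A share of 4.31% of the genes tested had a lower log2 fold change.

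SP140L, a family member close in sequence to SP140, had the lowest FPKM of the 5 genes and the lowest log2 fold change, while in FPKM units its difference of -3.49 was smaller than those of PML, SP100 and SP110. Its counts were 438, 540 and 669 in CELF6-OE and 1230, 1177 and 1091 in Control. The FPKM was 2.84, 3.43 and 4.46 in CELF6-OE, against 7.65, 7.04 and 6.52 in Control. The groups were apart by more than 2 FPKM units between the highest CELF6-OE and the lowest Control library. The mean was 3.58 ± 0.82 against 7.07 ± 0.57 FPKM (SD, n = 3, exact permutation p = 0.1), and the log2 fold change was -1.01 (SE 0.13, 95% interval -1.30 to -0.72, edgeR adjusted p = 0.000437). A lower log2 fold change was found for 3.26% of genes. Of the windows of 50 bases in SP140L transcripts, 12.6% also occurred in another gene, mostly SP140, and of those of 150 bases 4.39%. For SP140 itself, a family member known from immune cells, the counts were 6, 9 and 4 with CELF6 and 8, 14 and 8 in Control, too low for the filter.

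SP110, which is known from leukocyte nuclear bodies and from immunity to mycobacteria, was the most abundant of the 5 per length in Control. Its counts were 3515, 3608 and 3422 in Control and 2251, 2146 and 2571 in CELF6-OE. The FPKM was 32.67, 32.23 and 30.55 in Control and 21.84, 20.39 and 25.64 in CELF6-OE, and the groups did not overlap. The mean fell from 31.8 ± 1.12 to 22.6 ± 2.71 FPKM (SD, n = 3, exact permutation p = 0.1). The log2 fold change was -0.52 (SE 0.083, 95% interval -0.70 to -0.34, edgeR adjusted p = 0.00161). Of the annotated exon bases of SP110, 19.4% lie opposite exons of SP140 or of the gene ENSG00000225963 on the other strand. The strand setting of the counting is not given in the sources used here, and these 2 genes had at most 14 and 1 counts in any library.

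SP100, a partner of PML in the bodies, an autoantigen in biliary disease and a repressor of viral genomes, had a log2 fold change of -0.46, against -0.52 for SP110. Without Control replicate 3 both were at -0.53, whereas without Control replicate 1 SP100 was at -0.42 and SP110 at -0.53. Its counts were 2795, 2837 and 3194 in CELF6-OE and 4569, 4466 and 3747 in Control. The FPKM values of 14.15, 14.07 and 16.62 in CELF6-OE came close to the lowest of the Control values, 22.16, 20.82 and 17.46. The highest CELF6-OE and the lowest Control library, both replicate 3, differed by less than 1 FPKM unit. The mean was 14.9 ± 1.45 against 20.1 ± 2.42 FPKM (SD, n = 3, exact permutation p = 0.1), and the log2 fold change was -0.46 (SE 0.089, 95% interval -0.65 to -0.26, edgeR adjusted p = 0.00502). SP100 shares 3.85% of its exon bases with the pseudogene HMGB1P3, which had 0 to 1 counts per library.

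DAXX, which is recruited to the bodies by SUMO-modified PML and acts with ATRX as a chaperone of H3.3, had 2130, 2338 and 2289 counts in Control, against 2044, 2100 and 1990 in CELF6-OE. Its FPKM was 21.54, 21.67 and 21.55 in CELF6-OE and 21.5, 22.68 and 22.19 in Control. The lowest of the 6 values was a Control library, and the groups overlapped. The mean was 21.6 ± 0.072 against 22.1 ± 0.59 FPKM (SD, n = 3, exact permutation p = 0.4). The log2 fold change was -0.066 (SE 0.064, 95% interval -0.21 to 0.074, edgeR adjusted p = 0.507), so the interval ran from 86.6% to 105% of the Control level. Of the windows of 50 bases in DAXX transcripts, 11.6% also occurred in the overlapping gene ENSG00000285064, and of those of 150 bases 7.58%.

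**Figure D2:**
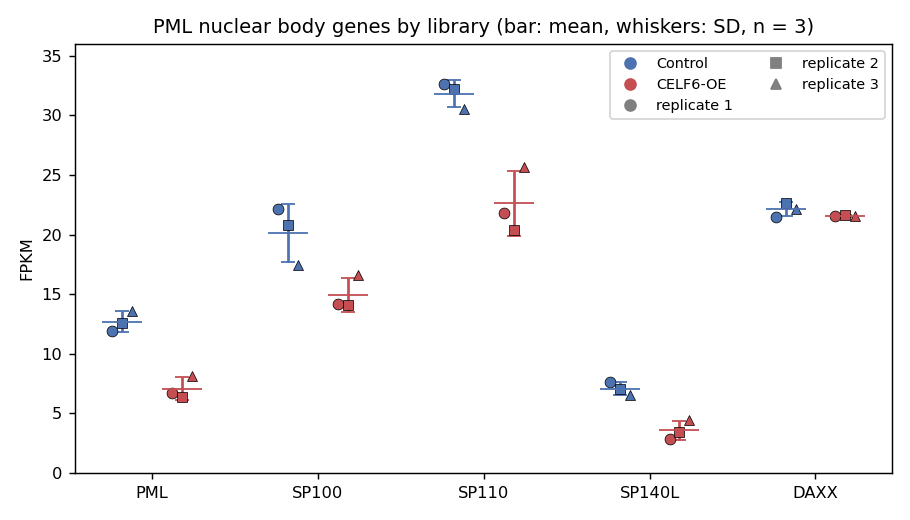
FPKM (vertical axis) of the 5 PML nuclear body genes in the 3 Control libraries (blue) and the 3 CELF6-OE libraries (red), with symbols for the replicate, horizontal bars for the mean and whiskers for the SD. The groups are apart for PML, SP100, SP110 and SP140L and overlap for DAXX near 22 FPKM, and replicate 3 (triangle) is the highest CELF6-OE library in the 4 that fell.

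Among the CELF6-OE libraries, replicate 3 had the least CELF6 and the highest level of all 4 genes that fell. Its FPKM was 125% of the mean of replicates 1 and 2 for PML, 118% for SP100, 121% for SP110 and 142% for SP140L, but 99.7% for DAXX. Without this library the log2 fold changes were -0.996 for PML, -0.55 for SP100, -0.62 for SP110, -1.20 for SP140L and -0.070 for DAXX, and 3 in place of 2 genes passed the DEG rule. Other lowered genes, such as ISG20, IRF1 and STAT2, were also highest in replicate 3 among the CELF6-OE libraries, but ITGAM, STRA6 and FBXO36 were not. The high replicate 3 is therefore not particular to the PML nuclear body genes. Whether the CELF6 level had a part in it was not tested, since 3 libraries allow no such test.

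In Control the genes ranked by FPKM as SP110, DAXX, SP100, PML and SP140L, and only the neighbours DAXX and SP100 overlapped between libraries. In CELF6-OE the order was the same, with SP110 and DAXX overlapping and all other neighbours apart. The changes of the genes relative to each other were compared as the log2 ratio of their FPKM in each library, over all 10 pairs. In 8 pairs the ratios of CELF6-OE and Control libraries did not overlap (exact permutation p = 0.1, adjusted p = 0.13 over the pairs), and no pair could reach a lower p. The log2 ratio to DAXX, CELF6-OE minus Control, differed by -0.97 for SP140L, -0.82 for PML, -0.46 for SP110 and -0.39 for SP100. For PML the difference was -0.42 relative to SP100 and -0.35 relative to SP110, and the ratios of SP100 and SP110 to SP140L differed by 0.58 and 0.51. The ratios of PML to SP140L and of SP100 to SP110 overlapped between groups (exact permutation p = 0.4, adjusted p = 0.4), with differences in log2 ratio of 0.15 and 0.070.

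The profile of each gene over the 6 libraries, as log2 CPM (counts scaled to library size) centred on its Control mean, was set against all other genes tested, with the root mean square difference as the measure. Within the 5, SP100 and SP110 were closest at 0.094 log2 units and SP140L and DAXX farthest at 0.71. Nearest to PML were IRF7, a transcription factor of interferon responses (0.046), PVRL2, which encodes the adhesion protein nectin-2 (0.046), and RTN4RL2 (0.051). SP100 was nearest to CHMP5, SPATS2L and PLD1 (0.036 to 0.038) and SP110 to ING4, LINC01504 and HHIPL2 (0.034 to 0.040). Farther from any gene was SP140L, with LINC01376, the ubiquitin ligase gene RNF213 and the peptidase gene ERAP1 at 0.084 to 0.086. DAXX was nearest to RAB8A, PFDN1 and LMAN2L (0.012 to 0.017). RNF213 was at 9.85, 10.36 and 14.69 FPKM in CELF6-OE and 23.22, 22.18 and 22.76 in Control. Its high CELF6-OE replicate 3, as in SP140L, follows from its choice by likeness to SP140L over the same 6 libraries.

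Genes of the pathways around the bodies were taken from lists that left out the 5 genes themselves. The lists were written from general knowledge, but with earlier results of these data known, so they are not independent of the data. The count of each list is to be read beside the shares over all 15847 genes. Of 35 tested partner proteins of PML bodies, 2 were called lower, 4 higher and 29 neither, against 11.5% lower and 6.47% higher of all genes, with a median log2 fold change of 0.11. The lower ones were ISG20, an exonuclease of interferon responses, and the kinase gene IKBKE. ISG20 had 18.74, 16.91 and 28.5 FPKM in CELF6-OE and 80.84, 86.98 and 88.16 in Control, and its log2 fold change of -2.03 (SE 0.16, edgeR adjusted p = 1.96e-05) was larger in size than that of any of the 5 genes. IKBKE fell by 0.34 on the log2 scale (edgeR adjusted p = 0.0240). Higher were the kinase gene HIPK2 by 0.43 (edgeR adjusted p = 0.00893), the deubiquitinase gene USP7 by 0.31 (0.0175), the DNA glycosylase gene TDG by 0.24 (0.0400) and the deacetylase gene HDAC2 by 0.27 (0.0461) on the log2 scale.

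Of 9 genes of H3.3 and its deposition, 1 was called higher and 8 not, with a median of -0.031, where all genes gave 6.47% higher and 11.5% lower. H3F3A, which encodes H3.3, was the 1 that rose, by 0.31 on the log2 scale (edgeR adjusted p = 0.0320), while H3F3B, which encodes the same protein, had a log2 fold change of -0.078 (0.379). ATRX, the partner of DAXX, stood at 0.085 (0.804). SUMO pathway genes gave 1 lower, 1 higher and 24 not called of 26, with a median of 0.089, both counts below the 11.5% lower and 6.47% higher of all genes. The SUMO protease gene DESI1 fell by 0.27 (edgeR adjusted p = 0.0272) and UBA2, a subunit of the SUMO-activating enzyme, rose by 0.30 (0.0338). Of 10 genes of PML turnover, 1 was lower, 2 were higher and 7 were not called, with a median of 0.065 and the same shares of all genes, 11.5% and 6.47%, as background. USP11, a deubiquitinase that stabilises PML, fell from 28.7 ± 0.49 to 21.9 ± 1.82 FPKM (SD, n = 3), a log2 fold change of -0.42 (edgeR adjusted p = 0.0028). CUL3, the scaffold of a ligase that degrades PML, rose by 0.29 (0.0332) and the ligase gene SIAH1 by 0.34 (0.0429) on the log2 scale. The 3 other SAND domain genes tested, DEAF1 among them at -0.21 (edgeR adjusted p = 0.0773), were not called, with a median of 0.072.

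Interferon signalling genes gave 6 lower, 0 higher and 6 not called of 12, beside 11.5% lower and 6.47% higher of all genes, with a median log2 fold change of -0.28. The transcription factor gene IRF1 had 13.06, 12.6 and 15.66 FPKM in CELF6-OE and 28.21, 28.32 and 29.3 in the Control libraries, which gave a log2 fold change of -1.09 (SE 0.086, edgeR adjusted p = 2.01e-05). STAT2, a subunit of the factor that interferon alpha and beta activate, fell by 1.01 (edgeR adjusted p = 0.000686) and IRF7 by 0.88 (0.000375) on the log2 scale. The interferon gamma receptor genes IFNGR1 and IFNGR2 fell by 0.59 (0.00115) and 0.29 (0.0143), and IFNAR2 by 0.28 (0.0270). IFNAR1, JAK1, JAK2, TYK2, IRF3 and IRF8 were not called. IRF9 did not pass the filter on low counts, and its level is not read as expression, since whether the counting kept the reads of this gene was not tested. Over the lists of pathway genes together, 10 were lower, 6 of them in interferon signalling, and 8 higher. The lists held 3, 35, 9, 26, 10 and 12 tested genes, some of them in more than 1 list. Of all genes tested, 11.5% were lower and 6.47% higher. The count of higher calls was 0 without CELF6-OE replicate 2 or without Control replicate 2, 1 without CELF6-OE replicate 1, 2 without CELF6-OE replicate 3 and 23 without Control replicate 1, so the higher calls depended on the library left out. The lower calls were 6 without CELF6-OE replicate 1, CELF6-OE replicate 2 or Control replicate 2.

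**Figure D3:**
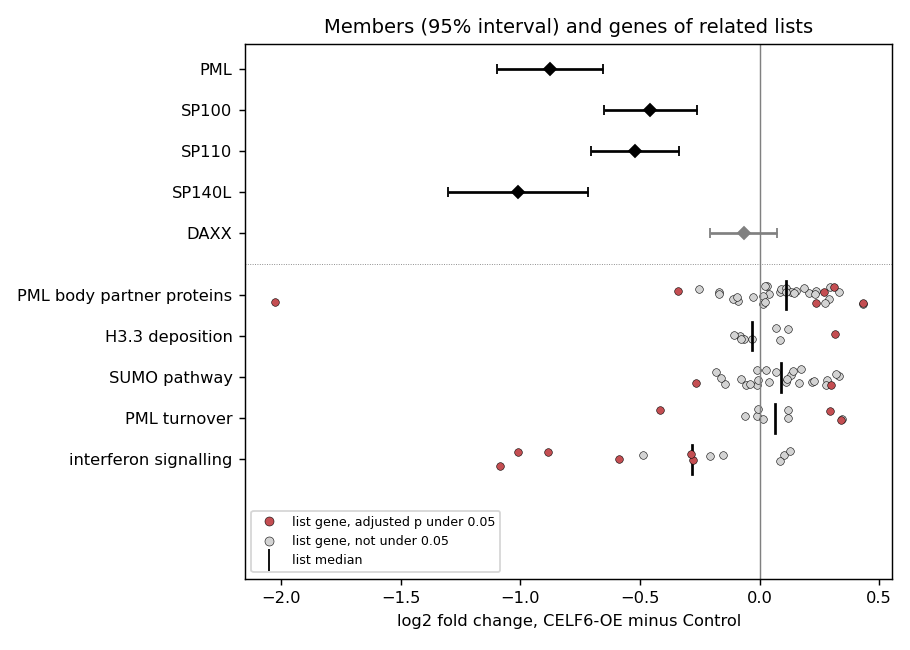
Log2 fold change, CELF6-OE minus Control (horizontal axis), of the 5 PML nuclear body genes with 95% intervals (diamonds, black where called and grey where not) and of the genes in 5 related lists (circles, red where called). The vertical bar is the list median, which lies between -0.031 and 0.11 in 4 lists and at -0.28 for interferon signalling, while SP140L and PML lie at -1.01 and -0.88.

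The 16-base stretch, with up to 1 mismatch, occurred before 3 further genes that were tested, of which 1 was called lower. BTN3A3, a butyrophilin gene, fell by 1.54 on the log2 scale (edgeR adjusted p = 7.49e-05), whereas RELA, a subunit of NF-kB, stood at -0.13 (0.185) and C2CD2 at -0.022 (0.895). Leaving out the 5 genes, GAAANGAAA was in the window of 219 tested genes, of which 24.7% were called lower, against 11.5% of the 10166 genes without it. For GAAANNGAAA the shares were 31.7% of 246 and 11.3% of 10139, and for TTCNNNGAA 12.6% of 588 and 11.7% of 9797. These shares are a description, and no factor's binding was measured.

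Neighbours within 500 kb were read along the chromosome among the genes tested. Around PML, 2 of 11 were called lower and 0 higher, beside 11.5% lower and 6.47% higher of all genes tested. STOML1, on the minus strand, starts 0.051 kb from the start of PML, which is on the plus strand. STOML1 had a log2 fold change of -0.31 (edgeR adjusted p = 0.102). The nearest on the other side, the retinol receptor gene STRA6, fell by 0.36 (edgeR adjusted p = 0.00659). Around the SP gene cluster, 2 of 7 were lower and 0 higher, beside the same shares of all genes, and counts this small do not set either locus apart from them. The nearest on either side, FBXO36 and CAB39, were at -0.66 (edgeR adjusted p = 0.0165) and -0.028 (0.890). DAXX lies in the major histocompatibility region. Of its 33 tested neighbours, 10 were lower and 0 higher, against 11.5% lower and 6.47% higher of all genes. Some of these neighbours overlap one another, PSMB9 and TAP1 among them, so they are not all separate loci. The nearest neighbours of DAXX, ZBTB22 and KIFC1, were not called, at -0.29 (edgeR adjusted p = 0.0876) and 0.11 (0.334). Of the 10, 7 lay 459 to 498 kb from DAXX, among them the antigen processing genes TAP1, TAP2, PSMB8 and PSMB9, which were named after their values were seen. TAPBP, a gene of antigen loading 4.27 kb from DAXX and picked out in the same way, had 31.9 ± 3.89 FPKM in CELF6-OE and 61.7 ± 1.94 in Control (SD, n = 3, log2 fold change -0.98, edgeR adjusted p = 3.81e-05).

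**Figure D4:**
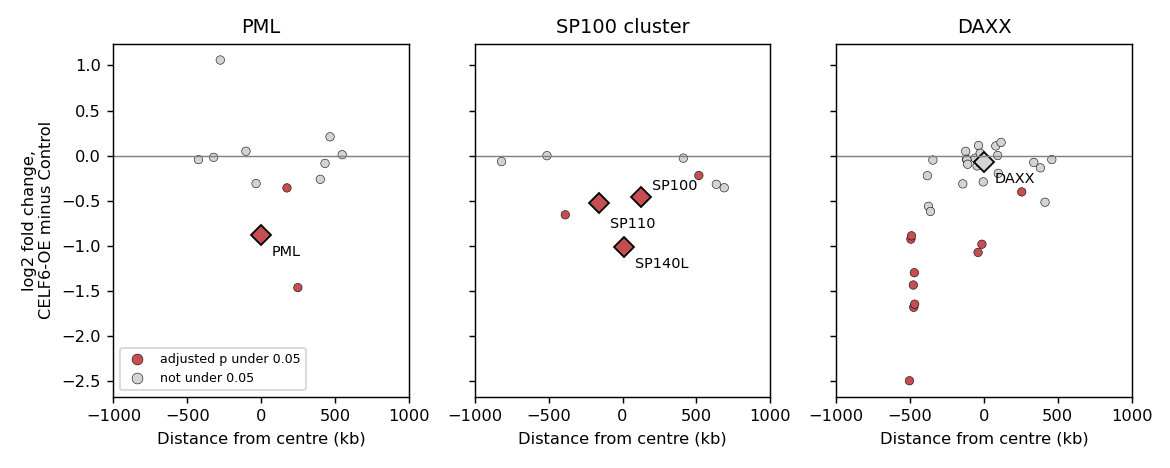
Log2 fold change, CELF6-OE minus Control (vertical axis), of the tested genes within 500 kb of PML, of the SP gene cluster and of DAXX, by the distance of their midpoints from the centre of the locus in kb (horizontal axis). Diamonds are the 5 genes and circles their neighbours, red where called at an adjusted p under 0.05, and in the DAXX panel 10 called neighbours lie below DAXX, with 7 of them about 500 kb to the left.

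Markers of cell types moved with the groups as well. Of 7 epithelial markers tested, 5 were lower and 0 higher, beside 11.5% and 6.47% of all genes, and their summed FPKM lay between 5041 and 5794 in CELF6-OE, below the 6178 to 7030 of Control. CDH1 and CLDN4, which encode junction proteins, fell by 1.62 (edgeR adjusted p = 0.000105) and 1.52 (0.000204), and KRT8 by 0.47 (0.00532) on the log2 scale. Of 15 leukocyte markers, 4 were tested and CD68 and ITGAM were lower, and the summed FPKM of the list ran from 7.04 to 8.46 with CELF6 and from 12.7 to 13.3 in Control. Of the 15, 11 were under 0.1 FPKM, with CD3E, CD3D and NKG7 without a count. CD68 and CD14 made up most of the sum, at 3.14 and 3.80 FPKM in CELF6-OE and 8.68 and 3.32 in Control. CD79A and ITGAM were at 0.49 and 0.34 FPKM in CELF6-OE and 0.35 and 0.55 in Control. The fibroblast list had 1 gene tested, COL1A1, which was not called, and the list summed to between 0.26 and 0.33 FPKM with CELF6 and between 0.37 and 0.44 in Control. The endothelial list had 1, PECAM1, which was lower, at a mean of 0.013 FPKM in CELF6-OE and 0.053 in Control. Their part in the levels of the PML nuclear body genes was not tested.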

How the data were processed

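RNA of 3 CELF6-OE and 3 Control cultures was sequenced from both ends after capture of polyadenylated RNA with a stranded kit. Per the methods, the authors filtered the reads, used TopHat2 for alignment to GRCh38, and counted uniquely placed reads. Which counter, strand setting and annotation release they used is not given in the sources used here. The deposited tables hold raw read counts per gene and FPKM rounded to 2 decimals, normalised by the authors, and no column was left out. Groups and replicate numbers came from the sample labels.

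Counts were scaled with TMM and filtered with filterByExpr (minimum count 10), then tested with the quasi-likelihood test of edgeR 4.0.16 in R 4.3.3, with Benjamini-Hochberg adjustment over all 15847 genes kept. The filter was used because without it the prior degrees of freedom were infinite, against 7.15 with it. Fold changes used a prior count of 0.125, and their SE was taken from the F statistic. The biological coefficient of variation was 8.62%. Replicates were described by the methods as biological, and all pairs within a group differed by more than counting noise (chi-square per degree of freedom 7.67 to 29.3). Intervals and the limit of 3 counts for a count of 0 cover no error beyond the test or counting. FPKM served for levels, exact two-sided permutation tests and ratios. The test was also run on counts simulated from its own fitted model, which does not check how well that model describes these libraries.

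Alternatives were RLE or library size scaling, no filter, DESeq2 1.42.0, limma-voom and limma-trend (limma 3.58.1), a replicate block, leaving out each library and leaving out CELF6 counts. Positions and overlaps came from GENCODE v44, promoters from RefSeq. Named were the 5 genes, CELF6, SP140, per list up to 3 called genes of smallest p in each direction and the gene of highest FPKM, the 3 genes of most similar profile and the nearest neighbours. Members of the lists named beyond this rule (among them HDAC2, ATRX, IFNGR1, IFNGR2, IFNAR2, IRF9, PTPRC, CD14 and CD79A) and the genes that share the promoter stretch were named after their values were seen. The 5 genes and all lists were chosen with earlier results of these data known, and the 16-base stretch, its mismatch limit and AANNGAAA were chosen after seeing the sequences. Some of the genes looked up are not reported here.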

Additional observations from a re-analysis of the deposited data

How the results depend on the processing

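PML, SP100, SP110 and SP140L were called lower, and DAXX was not called, in each of the alternative fits to the counts (other tests, scalings, no filter, the replicate block and left-out libraries) at an adjusted p under 0.05, with log2 fold changes of -0.996 to -0.80 for PML, -0.55 to -0.41 for SP100, -0.62 to -0.45 for SP110, -1.20 to -0.87 for SP140L and -0.12 to -0.027 for DAXX. The largest edgeR adjusted p was 0.00237 for PML, 0.0350 for SP100 and 0.0146 for SP110, each without CELF6-OE replicate 1, and 0.00435 for SP140L without CELF6-OE replicate 2. A p under 0.01 with a fold change of at least 1.5 left 2 of the 5 genes, and with a fold change of at least 2 it left 1, SP140L. Same-numbered libraries showed no shared deviation over all genes (correlations 0.0034, -0.0072 and -0.064), which cannot show that the cultures were unpaired. With a replicate block 4 of the 5 genes were again lower. Leaving out 1 library moved the lower calls over all genes between 1032 and 2370 from 1820 and the higher calls between 281 and 1906 from 1025. In the pathway lists it moved the lower calls between 6 and 14 from 10 and the higher calls between 0 and 23 from 8, and without a filter on low counts 14 were higher; the cause was not tested. Scaling by library size alone gave 1516 lower and 1288 higher genes and moved the median log2 fold change by 0.038. On log2(FPKM + 1), limma-trend passed the threshold that 3 against 3 permutations cannot reach for PML at -0.77, SP110 at -0.48 and SP140L at -0.83, with or without a minimum of 1 FPKM, and for SP100 at -0.40 only with it (adjusted p = 0.0248, against 0.0914 without). On log2(FPKM + 0.1) the values were -0.84 for PML, -0.50 for SP110 and -0.98 for SP140L, past the threshold, and -0.43 for SP100, not past it (adjusted p = 0.0825). With a minimum mean of 1 FPKM, CALCOCO2 replaced PLD1 among the genes nearest to SP100, and RNF213, ERAP1 and MAP2 were nearest to SP140L. Over the whole 300 bases of each RefSeq window, SP140 also held the exact stretch, in 4 windows in all, but this is the genomic copy of the first start of SP110, whose window it overlaps by 199 bases. At this depth SP140 was too low to test.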
